A study of Mus musculus with 9 samples.

Results

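The 9 genes described here encode the muscle acetylcholine receptor subunits (*Chrna1*, *Chrnb1*, *Chrnd*, *Chrng* and *Chrne*), organizers of the neuromuscular junction (*Musk* and *Dok7*) and genes that muscle fibres switch on when they lose their nerve (*Myog* and *Ncam1*). They were chosen by their symbols out of 18272 genes counted in the mouse tibia, and 8 of the 9 had enough counts to be tested, the exception being *Chrng*. Between groups, 0 of the 8 passed the thresholds for a differentially expressed gene in any comparison, as did 0 of all 13960 genes tested. The smallest p-value in the set belonged to *Chrnb1*, whose mean was 1.80 times as high in T1D as in NGT mice, with an unadjusted p of 0.0385 that did not survive adjustment over all genes. The 4 tested receptor subunits moved up and down together from mouse to mouse, also within groups.

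RNA was sequenced from 1 tibia of each of 9 female C57BL/6J mice, bought at 10 to 11 weeks of age, in 3 groups of 3. NGT mice, with normal glucose tolerance, were injected with vehicle and later given saline. T1D mice were made diabetic by a single injection of streptozotocin (STZ), which kills the beta cells of the pancreas, and given saline. Lira mice had the same STZ injection followed by liraglutide, a drug that activates the GLP-1 receptor, at 0.6 mg/kg/day for 8 weeks (the label of Lira mouse 3 gives 9 weeks). T1D and Lira mice therefore share STZ, the NGT group has neither agent, and no group received liraglutide without STZ. STZ is a chemical model that removes beta cells without the autoimmunity of type 1 diabetes, and whether these mice had lost any nerve endings is not described by the labels.

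At the neuromuscular junction, acetylcholine released by a motor axon opens a ligand-gated channel of 5 subunits in the fibre membrane. In fetal muscle the channel holds the gamma subunit, and in adult muscle the epsilon subunit takes its place. Agrin from the nerve acts through LRP4 on the kinase MuSK, which with its adaptor Dok-7 gathers the receptors under the nerve ending. When a fibre loses its nerve, the subunits of the fetal channel, MuSK, myogenin and NCAM are made along the whole fibre, a well-known response.

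The methods describe bones cleaned of all muscle, but muscle RNA was abundant in every library. A list of 19 muscle fibre genes took from 13.6% to 24.7% of the counts, and its summed level was lowest in T1D mouse 1, NGT mouse 1 and Lira mouse 3 (109435, 140602 and 149554 CPM, against 213428 to 279330 CPM in the other 6). CPM here are counts scaled to a common library size by TMM, which corrects that size for genes that take a large part of it. The list's group means were not separated by an exact two-sided permutation test (T1D against NGT p = 0.6, Lira against T1D p = 0.7), where 3 mice against 3 allow no p under 0.1. In each of the 3 same-numbered pairs the T1D mouse was below its NGT mouse, in CPM and in percent of counts. An exact two-sided permutation of signs within pairs gave p = 0.25, the smallest that 3 pairs allow, so it could not separate the groups. Of 11 bone genes, 11 were counted in 8 libraries and 7 in NGT mouse 2. Their summed levels ran from 206 CPM in NGT mouse 2, or 0.0184% of its counts, to 5573 CPM in T1D mouse 1. Marrow RNA was lowest in mouse 2 of each group. There, in NGT, T1D and Lira, 10 neutrophil genes summed to 8.43, 57.4 and 124 CPM. A list of 9 erythroid genes summed to 391, 493 and 830 CPM in the same 3 libraries. Library totals ranged from 13086343 to 16528372 counts. In such bulk samples, fewer fibres or junctions in the bone and less RNA per fibre cannot be told apart. A list of 9 motor neuron genes, of which 5 were in the table, summed to at most 3.21 CPM in any library, so transcripts of motor neuron cell bodies were hardly counted. A list of 12 Schwann cell genes, markers of the glia that wrap peripheral nerve, summed to 1061 CPM in T1D mouse 2 and to between 62.7 and 296 CPM in the other 8 libraries. T1D mouse 2 thus stood apart in nerve sheath RNA.

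Per length, in FPKM (fragments scaled by gene length and library total), *Chrnb1* was the most abundant of the 9 genes, with a mean of 21.7 ± 8.53 FPKM (SD over the 9 mice). Its lowest library, at 14.86 FPKM, was above the highest library of every other member. Behind it came *Dok7* (6.09 ± 0.907 FPKM), *Chrne* (4.72 ± 4.19 FPKM), *Myog* (4.61 ± 2.37 FPKM), *Chrna1* (3.76 ± 2.24 FPKM), *Ncam1* (3.52 ± 2.68 FPKM) and *Musk* (3.18 ± 1.45 FPKM). The ranges of these 6 genes overlapped, so their order is not separated by the spread between mice. *Chrnd* was lower, at 0.748 ± 0.503 FPKM, although its highest library (1.81 FPKM) exceeded the lowest of *Musk* (1.49 FPKM), *Ncam1* (1.32 FPKM), *Chrna1* (1.23 FPKM) and *Chrne* (0.73 FPKM). *Chrng* was last, at no more than 0.15 FPKM in any library and below the lowest library of *Chrnd* (0.26 FPKM).

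**Figure D1:**
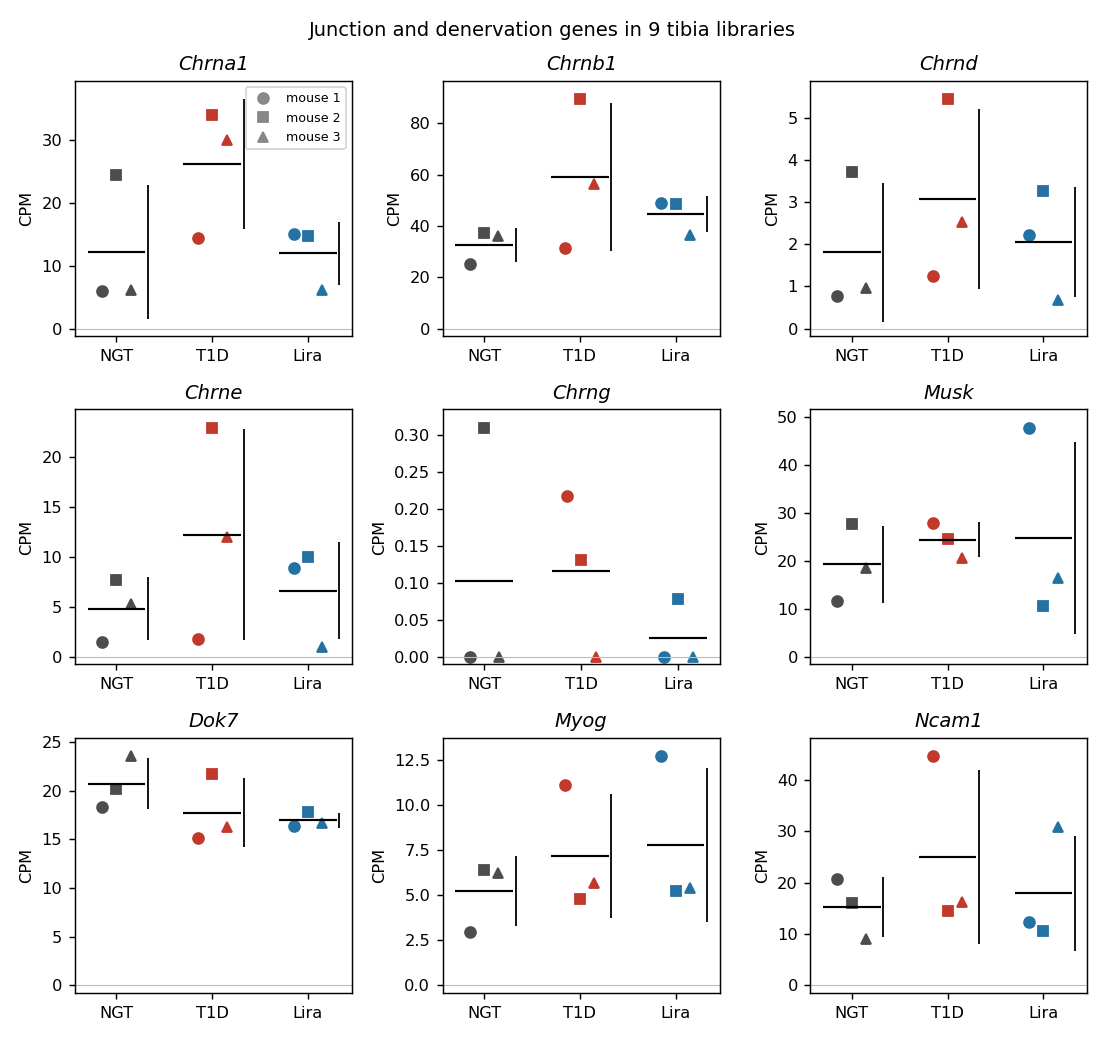
Level of each of the 9 genes in CPM (TMM-scaled, linear axes that include 0) in the 3 NGT, 3 T1D and 3 Lira libraries, where symbols mark mouse 1, 2 and 3, horizontal lines are group means and vertical lines span the mean ± 1 SD (omitted for *Chrng*, which was at 0 in 5 libraries). T1D mouse 2 is the highest library for *Chrna1*, *Chrnb1*, *Chrnd* and *Chrne*, and T1D overlaps with NGT and with Lira in every panel.

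*Chrna1* encodes the alpha subunit, which carries most of the acetylcholine binding site. It was measured at 5.97, 24.5 and 6.10 CPM in NGT mice 1 to 3, at 14.4, 34.0 and 30.1 CPM in T1D mice and at 14.99, 14.8 and 6.14 CPM in Lira mice. T1D mice 2 and 3 were the highest of all 9, yet NGT mouse 2 lay above T1D mouse 1 and the groups overlapped. The fitted difference between T1D and NGT was 1.10 on the log2 scale (SE 0.62, 95% interval from -0.32 to 2.52), with an unadjusted p of 0.112. It was 0.87 without T1D mouse 2 and 2.11 without NGT mouse 2 (unadjusted p of 0.00353), the NGT mouse with the highest level. For Lira against T1D it was -1.13 (SE 0.62), with an unadjusted p of 0.105. Adjusted by the Benjamini-Hochberg method over all genes in edgeR's quasi-likelihood test, the p-values were 0.977 and 0.978.

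*Chrnb1*, the beta subunit, was measured at 25.1, 37.0 and 36.0 CPM in NGT mice, at 31.5, 89.3 and 56.4 CPM in T1D mice and at 49.0, 48.4 and 36.3 CPM in Lira mice. T1D mice 2 and 3 and Lira mice 1 and 2 lay above all NGT mice, while T1D mouse 1 and Lira mouse 3 lay within their range. The difference of T1D from NGT was 0.85 (SE 0.35, 95% interval from 0.06 to 1.65), a fold of 1.80 with an interval from 1.04 to 3.13. Its unadjusted p was 0.0385 and its adjusted p 0.977 (edgeR). Without T1D mouse 2 the difference was 0.42, with an unadjusted p of 0.179. Lira differed from T1D by -0.40 (SE 0.35, adjusted p = 0.978), and without T1D mouse 2 by 0.02. T1D and Lira mice together differed from NGT mice by 0.65 (SE 0.31), with an unadjusted p of 0.0663 and an adjusted p of 0.999.

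*Chrnd*, the delta subunit, was the scarcest of the tested members, with 12 to 83 counts a library. Its levels were 0.762, 3.71 and 0.950 CPM in NGT mice, 1.25, 5.43 and 2.53 CPM in T1D mice and 2.21, 3.27 and 0.689 CPM in Lira mice. Within each group mouse 2 was the highest, and the range inside a group was wider than the distance between group means. The differences were 0.76 (SE 0.82) for T1D against NGT and -0.58 (SE 0.81) for Lira against T1D, and the former was 0.07 without T1D mouse 2 and 1.84 without NGT mouse 2 (unadjusted p of 0.0610).

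*Chrne* and *Chrng* encode the adult and the fetal subunit. *Chrne* was measured at 1.46, 7.73 and 5.30 CPM in NGT mice, at 1.79, 22.9 and 12.0 CPM in T1D mice and at 8.92, 9.97 and 1.03 CPM in Lira mice. It was the most variable member, spanning 22.2-fold, and its lowest values fell in the 3 libraries with the least muscle fibre RNA (NGT mouse 1, T1D mouse 1 and Lira mouse 3). T1D differed from NGT by 1.34 (SE 1.02, 95% interval from -0.99 to 3.67, adjusted p = 0.977) and Lira from T1D by -0.88 (SE 1.01, adjusted p = 0.978). Without T1D mouse 2 these became 0.51 and -0.06. The raw counts of *Chrng* were 0, 4 and 0 in NGT mice, 4, 2 and 0 in T1D mice and 0, 1 and 0 in Lira mice. A count of 0 allows up to 3 counts, here 0.163 to 0.237 CPM by library and for counting error only, so no group stood clear of the limit and *Chrng* was not tested. Per length, *Chrne* was above *Chrng* in all 9 libraries, as its lowest library had 0.73 FPKM and the highest of *Chrng* had 0.15 FPKM. A ratio of the pair was not computed, since *Chrng* was at 0 in 5 libraries. In 7 of the 9 libraries *Chrng* was at or under this limit, which does not show that it was absent.

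Since the tested subunits moved together across mice, their promoters are shown for the 3 that the reference table held, *Chrna1*, *Chrnb1* and *Chrne*. Each sequence runs 5′ to 3′ on the strand of the gene, from 250 bases before to 50 bases after the RefSeq start, in build GRCm38.p6. Capitals mark the E-box CANNTG, the core bound by myogenin and other myogenic factors, and in *Chrne* also the N-box core CCGGAA, known from synaptic genes.
Chrna1, chr2:73580289-73580588, minus strand: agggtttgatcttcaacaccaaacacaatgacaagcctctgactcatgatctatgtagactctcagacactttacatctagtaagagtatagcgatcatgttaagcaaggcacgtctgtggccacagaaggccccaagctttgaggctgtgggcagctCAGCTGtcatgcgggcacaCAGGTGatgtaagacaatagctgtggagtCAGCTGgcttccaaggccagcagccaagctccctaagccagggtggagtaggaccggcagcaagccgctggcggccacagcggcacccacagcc
Chrnb1, chr11:69795888-69796187, minus strand: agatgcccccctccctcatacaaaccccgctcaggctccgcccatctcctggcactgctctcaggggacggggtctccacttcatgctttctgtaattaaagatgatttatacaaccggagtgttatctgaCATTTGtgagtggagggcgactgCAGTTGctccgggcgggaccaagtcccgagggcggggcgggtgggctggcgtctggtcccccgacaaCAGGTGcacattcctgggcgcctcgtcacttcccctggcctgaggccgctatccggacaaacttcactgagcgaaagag
Chrne, chr11:70619145-70619444, minus strand: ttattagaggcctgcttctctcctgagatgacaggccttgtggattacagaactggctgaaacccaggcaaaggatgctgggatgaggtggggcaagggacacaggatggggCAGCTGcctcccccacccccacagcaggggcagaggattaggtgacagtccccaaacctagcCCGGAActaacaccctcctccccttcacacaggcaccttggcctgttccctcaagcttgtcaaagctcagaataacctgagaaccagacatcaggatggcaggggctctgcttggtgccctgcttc
*Chrna1* and *Chrnb1* held 3 E-boxes each and *Chrne* held 1 E-box and 1 N-box. On the forms searched, E-boxes read the same on both strands and the N-box was sought on both, with no overlap between the motifs here. In *Chrna1* the E-boxes began at -92, -73 and -44 relative to the start, and in *Chrnb1* at -119, -96 and -29. The *Chrne* E-box began at -138 and its N-box at -76. Of the 32851 promoters in the table, 72.3% held at least 1 E-box, 17.6% at least 3 and 14.9% at least 1 N-box, so such matches are common and describe the sequence only. Of the other members, *Chrng* and *Musk* held 3 E-boxes, *Myog* 2, and the promoters of *Dok7* 1 and 0, while *Chrnd* and *Ncam1* had no match in the table.

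*Musk*, the receptor kinase of the junction, was measured at 11.7, 27.6 and 18.6 CPM in NGT mice, at 27.9, 24.6 and 20.7 CPM in T1D mice and at 47.7, 10.5 and 16.4 CPM in Lira mice. Lira mice held both the highest and the lowest value of the 9, and T1D mice were the closest together. T1D differed from NGT by 0.34 (SE 0.53, adjusted p = 0.984) and Lira from T1D by 0.03 (SE 0.53, adjusted p = 0.998). The former was 0.082 without NGT mouse 1 and 0.69 without NGT mouse 2, and the latter -0.86 without Lira mouse 1.

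*Dok7*, the adaptor that activates MuSK from inside the fibre, was the steadiest member and varied 1.55-fold over the 9 libraries. Its levels were 18.3, 20.2 and 23.5 CPM in NGT mice, 15.2, 21.7 and 16.3 CPM in T1D mice and 16.3, 17.8 and 16.7 CPM in Lira mice. All 3 Lira mice and T1D mice 1 and 3 were below the NGT range, with T1D mouse 2 inside it. The differences were -0.22 (SE 0.18, 95% interval from -0.64 to 0.20) for T1D against NGT and -0.07 (SE 0.18) for Lira against T1D. For STZ-treated mice together against NGT it was -0.26 (SE 0.16, adjusted p = 0.999). That difference was -0.15 without NGT mouse 3 and -0.35 without T1D mouse 2 (edgeR, unadjusted p of 0.0413, adjusted p of 0.957). *Dok7* is the member for which these data set the tightest limits, and a change of 2-fold (1 on the log2 scale) lies outside its intervals in this fit. Scaled to the muscle fibre genes, the intervals ran from -0.95 to 1.02 and from -1.25 to 0.71 and no longer left out 2-fold.

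*Myog*, myogenin, is a transcription factor that drives receptor genes in developing and denervated fibres. It was measured at 2.98, 6.42 and 6.25 CPM in NGT mice, at 11.1, 4.78 and 5.67 CPM in T1D mice and at 12.7, 5.22 and 5.40 CPM in Lira mice. T1D mouse 1 and Lira mouse 1 were high and the other 4 STZ-treated mice lay within the NGT range. The differences were 0.46 (SE 0.50, adjusted p = 0.981) for T1D against NGT and 0.11 (SE 0.49, adjusted p = 0.987) for Lira against T1D. Without T1D mouse 1 the former was 0.0034, and without NGT mouse 1 it was 0.19.

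*Ncam1* encodes the neural cell adhesion molecule, found on nerve, Schwann cells and several blood and stromal cells as well as on denervated fibres. It was measured at 20.7, 15.9 and 9.02 CPM in NGT mice, at 44.5, 14.5 and 16.1 CPM in T1D mice and at 12.3, 10.7 and 30.8 CPM in Lira mice. The 3 highest values, in T1D mouse 1, Lira mouse 3 and NGT mouse 1, came from the 3 libraries with the least muscle fibre RNA, and the part of other cells in its level was not tested. T1D differed from NGT by 0.72 (SE 0.57, adjusted p = 0.977) and Lira from T1D by -0.48 (SE 0.56, adjusted p = 0.978). Without T1D mouse 1 these were 0.0057 and 0.23, and without Lira mouse 3 the latter was -1.13.

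The comparison of T1D with NGT asks whether STZ and the diabetes it causes, not separable here, changed these genes. That of Lira with T1D asks whether liraglutide did. The T1D mice enter both, so the directions of the 2 comparisons are not independent. Thresholds were an adjusted p under 0.05 and a fold over 2. In T1D against NGT, 0 of 8 members passed, as did 0% of the 13960 genes tested, and 1 of 8 (*Chrnb1*) had an unadjusted p under 0.05, against 3.95% of all genes (552). In Lira against T1D, 0 of 8 passed (0% of all genes) and 0 had an unadjusted p under 0.05 (3.33% of all genes, 465). In T1D and Lira together against NGT, 0 of 8 passed (0% of all genes) and 0 had an unadjusted p under 0.05 (1.8% of all genes, 251). Adjusted p-values of the members lay between 0.977 and 0.999 in edgeR. By DESeq2, 0 of 8 passed in any comparison, and *Chrnb1* alone had an unadjusted p under 0.05, in T1D against NGT (697 of 13960 genes) and in T1D and Lira against NGT (345 genes), with 0 members in Lira against T1D (620 genes).

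For T1D against NGT, 7 of 8 members had a fitted difference above 0, with a median of 0.74 against 0.02 over all genes tested. For Lira against T1D, 6 of 8 were below 0, with a median of -0.44 against 0.04. Without T1D mouse 2 the counts were 7 of 8 above 0 (median 0.46) and 4 of 8 below 0 (median -0.02). The members share libraries and muscle content, so these counts describe the set and are no test of it. On CPM, 0 of 8 members had groups that did not overlap in T1D against NGT (8.6% of all genes), in Lira against T1D (7.13%) or in T1D and Lira against NGT (0.817%).

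**Figure D2:**
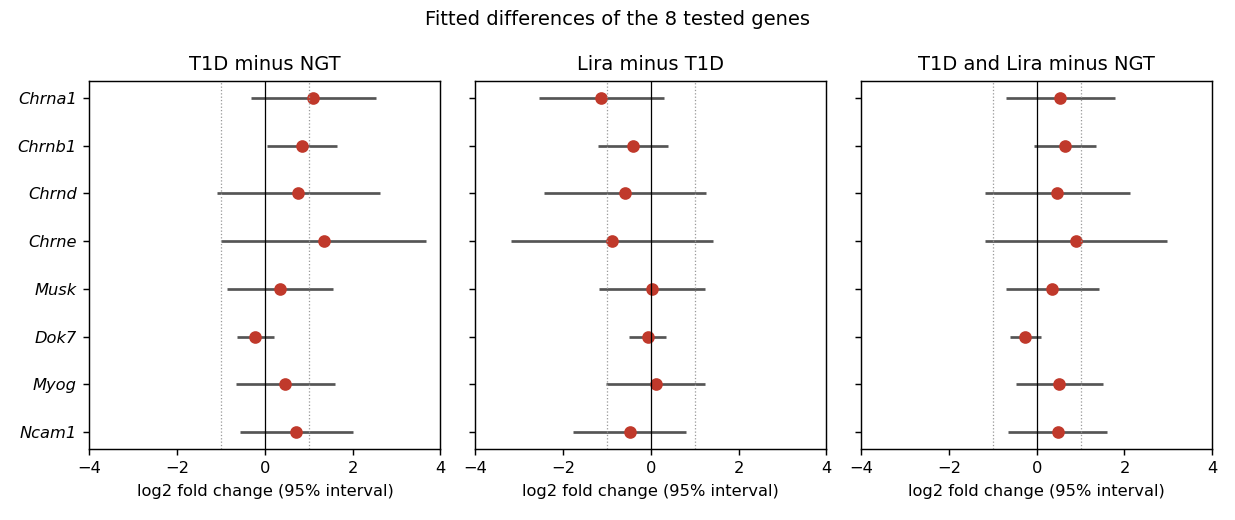
Fitted log2 fold changes of the 8 tested genes (points) with 95% intervals (lines) for the 3 comparisons, where the solid vertical line marks no difference and dotted lines mark 2-fold. Only the interval of *Chrnb1* for T1D minus NGT leaves out 0, from 0.06 to 1.65, and *Dok7* has the narrowest intervals.

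Same-numbered NGT and T1D mice resembled each other across genes, and with the mouse number as a block 2 of 8 members had an unadjusted p under 0.05 for T1D against NGT. These were *Chrna1*, with a difference of 1.35 and an unadjusted p of 0.0322, and *Chrnb1*, with 0.78 and 0.0334, while over all genes the count went from 552 to 752 and the adjusted p of both was 0.865. With the block and only NGT and T1D libraries, *Chrna1*, *Chrnb1* and *Chrne* had p-values of 0.0125, 0.0130 and 0.0125, at an adjusted p of 0.255 to 0.256, in a fit where 1931 of 13625 genes had a p under 0.05.

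*Chrnb1* and *Chrna1* were the members whose separation turned on the scale. Divided by the whole library total, without TMM scaling, *Chrnb1* stood at 30.3, 33.1 and 31.8 CPM in NGT mice, at 39.3, 88.8 and 51.1 CPM in T1D mice and at 44.97, 43.9 and 40.8 CPM in Lira mice. On that scale all 6 STZ-treated mice were above all 3 NGT mice. The same held per 1000000 muscle fibre counts, where NGT mice stood at 179, 147 and 129, T1D mice at 288, 418 and 215 and Lira mice at 201, 196 and 243. With TMM scaling, which lowers the muscle-poor libraries (factors of 1.12 to 1.25 in T1D mouse 1, NGT mouse 1 and Lira mouse 3), T1D mouse 1 and Lira mouse 3 fell into the NGT range.

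**Figure D3:**
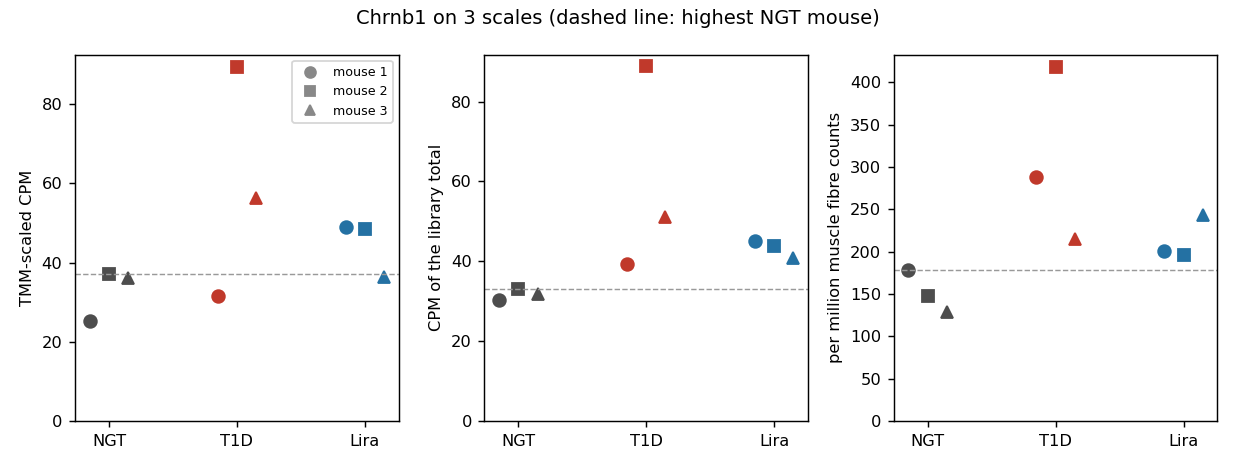
*Chrnb1* in each library as TMM-scaled CPM, as CPM of the library total and per 1000000 counts of the muscle fibre list (linear axes from 0), with symbols for mouse 1, 2 and 3 and a dashed line at the highest NGT mouse. All 6 T1D and Lira mice lie above the line in the middle and right panels, and 4 of the 6 in the left panel.

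Members without overlap were counted on these scales as well, and this count was added after the data were seen. As CPM of the library total there was 1 of 8 in T1D against NGT (*Chrnb1*, against 7.39% of all genes), 1 in Lira against T1D (*Chrna1*, lower in Lira, against 5.81%) and 1 in T1D and Lira against NGT (*Chrnb1*, against 1.15%). Per muscle fibre count there were 2 in T1D against NGT (*Chrna1* and *Chrnb1*, against 1.62%), 1 in Lira against T1D (*Chrna1*, against 1.9%) and 1 in T1D and Lira against NGT (*Chrnb1*, against 0.258%). *Chrna1* per 1000000 muscle fibre counts stood at 42.4, 97.4 and 21.8 in NGT mice, at 132, 159 and 115 in T1D mice and at 61.5, 59.9 and 41.1 in Lira mice. The 3 T1D mice were the highest there, and Lira mice lay within the NGT range.

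In the fit scaled to muscle fibre genes, the median of all genes moved by 0.25 in T1D against NGT and by -0.23 in Lira against T1D, so differences are read against medians of 0.27 and -0.19. There *Chrnb1* had a T1D-to-NGT difference of 1.02 and *Chrna1* one of 1.33, with unadjusted p-values of 0.0141 and 0.0349. *Chrna1* differed between Lira and T1D by -1.32, with an unadjusted p of 0.0356. With the muscle fibre level as a covariate, the T1D-to-NGT differences were 0.97 for *Chrnb1*, 1.38 for *Chrna1* and 1.82 for *Chrne*, with unadjusted p-values of 0.00385, 0.0260 and 0.0119. Their adjusted p-values were 0.842 there and 1.000 under the scaling.

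Across the 9 libraries, the 4 tested receptor subunits varied together. Over their 6 pairs, Pearson's r of log2(CPM + 1) was between 0.75 and 0.90 (median 0.84), and Spearman's rho between 0.73 and 0.90. With group means removed r was between 0.67 and 0.93, and without T1D mouse 2 between 0.65 and 0.86. The other 22 pairs of tested members ranged from -0.68 to 0.81, with a median of 0.05. Among them, *Musk* and *Myog* were the most alike (r = 0.81), both being highest in Lira mouse 1 and, among NGT mice, lowest in mouse 1. *Ncam1* ran opposite to *Chrne* (r = -0.68) and to *Dok7* (r = -0.62). These values describe 9 libraries that share muscle content and scaling, and are given without a test.

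**Figure D4:**
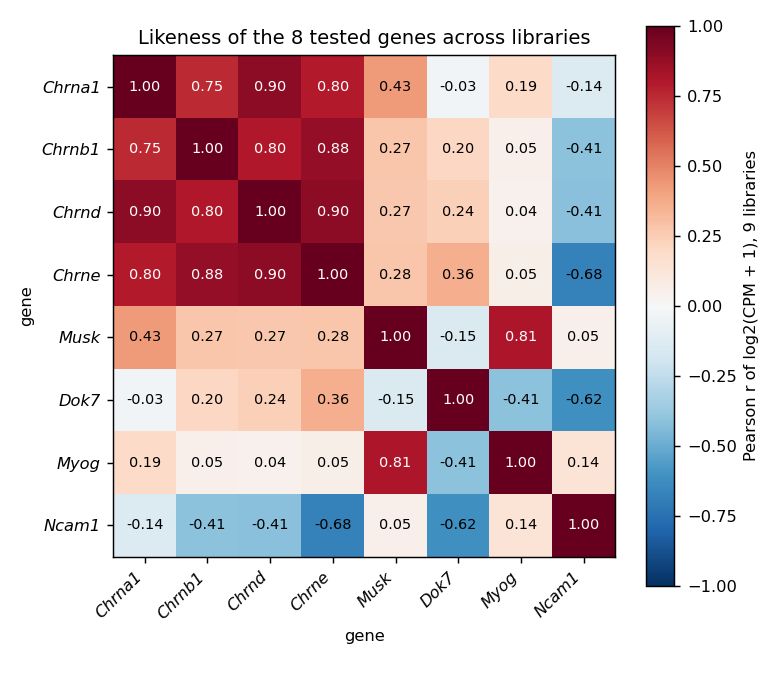
Pearson's r of log2(CPM + 1) over 9 libraries for each pair of the 8 tested genes, with the value in each cell and color from -1 (blue) to 1 (red). The 4 receptor subunits form a block with r from 0.75 to 0.90, and *Musk* with *Myog* (0.81) is the only other pair above 0.45.

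The receptor subunits also followed the Schwann cell list. Its summed level was 86.1, 296 and 62.7 CPM in NGT mice, 139, 1061 and 190 CPM in T1D mice and 143, 133 and 78.9 CPM in Lira mice. Of 8 relations computed with log2 levels, *Chrna1* had r = 0.86 (exact permutation p = 0.000165, adjusted 0.00132) and rho = 0.92 (exact permutation p = 0.00131, adjusted 0.0105). *Chrnd* had r = 0.88 (exact permutation p = 0.000449, adjusted 0.00180) and rho = 0.85 (p = 0.00607, adjusted 0.0243). Leaving out the 2 libraries farthest from the median, NGT mouse 3 and T1D mouse 2, r was 0.92 for *Chrna1* and 0.85 for *Chrnd*. The permutation treated the 9 libraries as exchangeable and so took no account of group or of same-numbered mice. This correlation test was not planned, and its adjustment covers 8 members against this 1 list, not the other lists. With group means removed, r was 0.79 for *Chrna1*, 0.89 for *Chrnd*, 0.77 for *Chrnb1* and 0.70 for *Chrne*, and 0.54 for *Dok7*, 0.26 for *Musk*, -0.14 for *Myog* and -0.39 for *Ncam1*, given without a test. In all 3 same-numbered pairs the T1D mouse was above the NGT mouse for the list and for *Chrna1*, *Chrnb1*, *Chrnd* and *Chrne*. It was above in 2 pairs for *Musk* and *Ncam1* and in 1 pair for *Dok7* and *Myog*. The share of all genes with such agreement was not computed, so these counts are no test.

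*Chrnb1* (r = 0.78, exact permutation p = 0.0188, adjusted 0.0376; rho = 0.70, p = 0.0433, adjusted 0.0865) and *Chrne* (r = 0.73, exact permutation p = 0.0182, adjusted 0.0376; rho = 0.72, p = 0.0369, adjusted 0.0865) had lower values. Without the same 2 libraries r was 0.42 for *Chrnb1*, whose relation rested on them, and 0.71 for *Chrne*. Without T1D mouse 2 alone they were 0.41 and 0.56. *Musk*, *Dok7*, *Myog* and *Ncam1* had r from -0.10 to 0.35 and exact permutation p-values from 0.361 to 0.931. *Musk* was the highest of these, with rho = 0.57 (exact permutation p = 0.121, adjusted 0.193) and r = 0.47 without the 2 farthest libraries. With the Schwann cell level as a covariate, chosen after the data were seen, the T1D-to-NGT differences were 0.54 for *Chrna1*, 0.32 for *Chrnb1*, -0.25 for *Chrnd* and 0.02 for *Chrne*, with p-values from 0.256 to 0.985. The list itself averaged 148 ± 129 CPM in NGT, 463 ± 518 CPM in T1D and 118 ± 34.5 CPM in Lira mice (SD, n = 3), and whether nerve RNA has a part in the receptor levels was not tested.

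**Figure D5:**
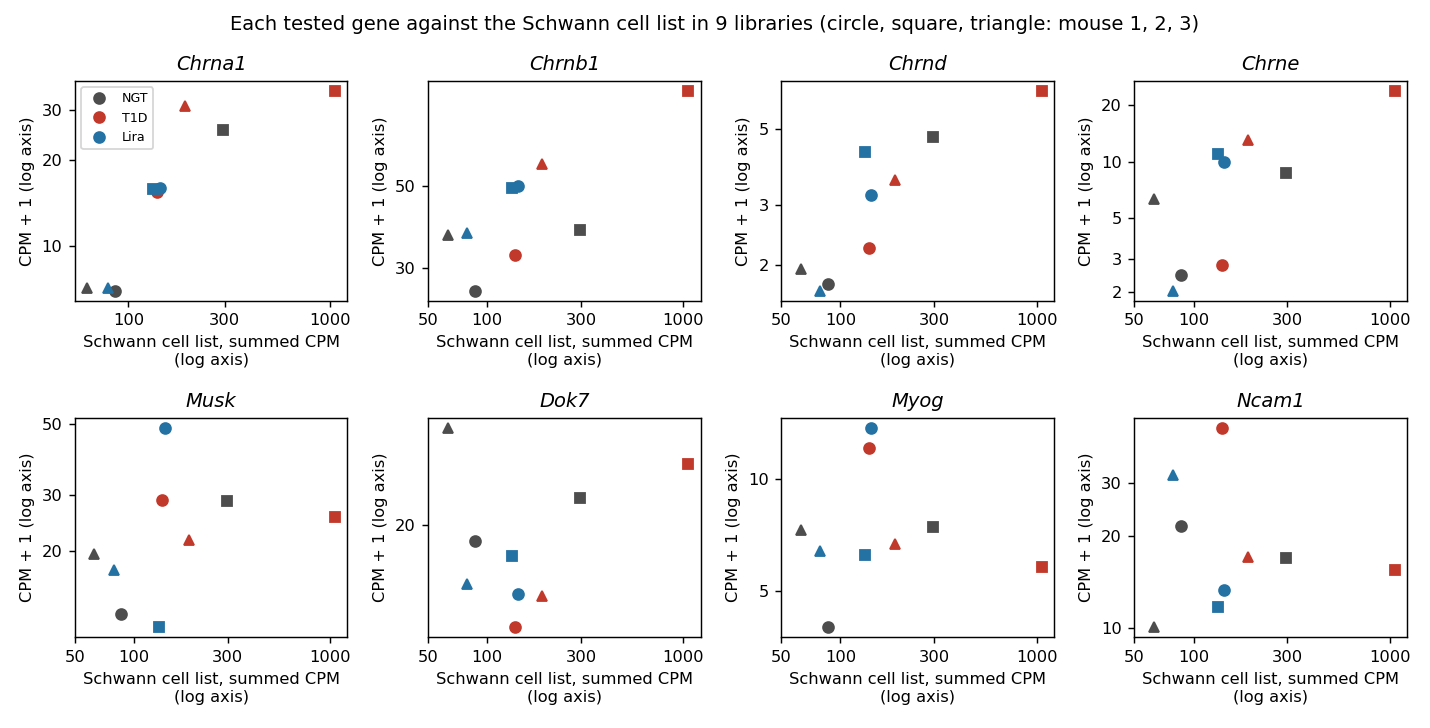
CPM + 1 of each of the 8 tested genes (log axis) against the summed CPM of 12 Schwann cell genes (log axis) in 9 libraries, with gray for NGT, red for T1D and blue for Lira, and symbols for mouse 1, 2 and 3. *Chrna1* and *Chrnd* climb with the list also among the 8 libraries other than T1D mouse 2 (1061 CPM), whereas *Dok7*, *Myog* and *Ncam1* show no such order and *Musk* is in between (rho = 0.57).

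Among all tested genes, the genes most like each member (at most 3) over the 9 libraries were found by the same Pearson's r. For *Chrna1* they were *Plet1* (0.96), *Etv5* (0.94) and *Csnk1e* (0.94), for *Chrnd* *Etv5* (0.97) and *Sfrp5* (0.97), for *Chrnb1* *Hs6st2* (0.97), *4930544D05Rik* (0.95) and *Sephs1* (0.93), and for *Chrne* *Gfra1* (0.99), *2610008E11Rik* (0.98) and *Prr29* (0.97). *Etv5*, an ETS transcription factor, was thus near the top for both *Chrna1* and *Chrnd*. For *Musk* they were *Drg1* (0.92), *Ythdf2* (0.92) and *Bach1* (0.90), for *Dok7* *Cpeb1* (0.96), *Ppp6c* (0.96) and *Ppp1r14c* (0.95), for *Myog* *Gdap2* (0.93), *Tmem144* (0.93) and *Pheta1* (0.89), and for *Ncam1* *Alkbh2* (0.98), *Uchl1* (0.98) and *Lbh* (0.98). These are the top of 13960 genes ranked on 9 libraries and are given as a description.

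The other genes of the junction and of the denervation response were counted from lists. Of 41 further junction genes, 39 were tested, 0 passed the thresholds in any comparison, and 22 had a T1D-to-NGT difference above 0 and 17 below, with a median of 0.03. Among their most abundant members were *Scn4a*, the muscle sodium channel (667 ± 217 CPM in NGT, 503 ± 221 CPM in T1D and 593 ± 170 CPM in Lira, SD of 3 mice), *Dag1*, dystroglycan (430 ± 116, 323 ± 46.6 and 447 ± 119 CPM), and *Prkar1a*, a subunit of protein kinase A (159 ± 32.8, 177 ± 32.7 and 144 ± 16.5 CPM). In each of them the groups differed by less than 0.5 on the log2 scale, with an adjusted p of at least 0.977. Without T1D mouse 2, 19 of the 39 junction genes had a T1D-to-NGT difference above 0 (median -0.015), and without NGT mouse 2, 25 (median 0.077). An unadjusted p under 0.05 was found in this list for 0 of 39 genes in T1D against NGT (3.95% of all genes) and for 2 of 39 in Lira against T1D (3.33% of all genes), named after their values were seen. These were *Gabpa*, a subunit of the factor that binds the N-box, with a difference of 0.38 (SE 0.17), and *Phldb2*, a membrane-anchoring protein of the junction, with -0.65 (SE 0.27).

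Of 24 further denervation genes, 21 were tested, 0 passed, and 12 had a T1D-to-NGT difference above 0 and 9 below, with a median of 0.12 (-0.073 without NGT mouse 3). *Fbxo32* and *Trim63*, ubiquitin ligases of muscle atrophy, were the most abundant. *Fbxo32* was measured at 739, 1929 and 874 CPM in NGT mice, at 364, 652 and 496 CPM in T1D mice and at 2604, 713 and 500 CPM in Lira mice. All 3 T1D mice were below all 3 NGT mice, as in 2 of 21 genes of the list (8.6% of all genes did not overlap in either direction), with a difference of -1.23 (SE 0.64, adjusted p = 0.977). *Trim63* stood at 318, 1023 and 702 CPM in NGT mice, at 148, 274 and 442 CPM in T1D mice and at 2560, 363 and 315 CPM in Lira mice, and differed between T1D and NGT by -1.24 (SE 0.85, adjusted p = 0.977). Lira mouse 1 was the highest library for both, as it was for *Musk* and *Myog*. *Actc1*, cardiac actin, and *Cdkn1a*, a cell cycle inhibitor, differed between T1D and NGT by -0.12 (SE 1.32) and -0.36 (SE 0.52). In this list 2 of 21 genes had an unadjusted p under 0.05 in T1D against NGT (3.95% of all genes), named after their values were seen. These were *Ankrd1*, a stretch-responsive protein of the sarcomere, with 2.27 (SE 0.85), and *Hdac4*, a repressor that acts upstream of myogenin after denervation, with -0.77 (SE 0.23). In Lira against T1D there were 0.

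Of 11 neuronal and other acetylcholine receptor subunits, 4 were tested and 0 passed. They were scarce, with means over the 9 libraries of 4.17 CPM for *Chrna2*, 3.61 CPM for *Chrna10*, 1.998 CPM for *Chrna9* and 0.535 CPM for *Chrnb2*. A T1D-to-NGT difference above 0 was found for 2 of the 4. The count was 4 without NGT mouse 2 or without T1D mouse 1, and 1 without T1D mouse 3.

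Cells that could carry these transcripts were followed by the remaining lists. All 11 tested Schwann cell genes had a T1D-to-NGT difference above 0 (median 1.57) and a Lira-to-T1D difference below 0 (median -1.64), and 0 passed. Without T1D mouse 2, 5 of 11 were above 0 in T1D against NGT (median -0.10) and 8 of 11 below 0 in Lira against T1D (median -0.33). *S100b* and *Pmp22*, 2 of the 11, had an unadjusted p under 0.05 in T1D against NGT (3.95% of all genes, also the background for the lists that follow) and in Lira against T1D (3.33%), and were named for this after their values were seen. *Pmp22* (42.2 ± 22.8, 128 ± 108 and 38.6 ± 8.80 CPM in NGT, T1D and Lira), *Mbp* (32.3 ± 33.8, 96.0 ± 115 and 25.8 ± 3.48 CPM) and *Prx* (7.66 ± 9.51, 28.1 ± 38.7 and 6.63 ± 3.61 CPM), all of myelin, were among the most abundant, and T1D mouse 2 was the highest library for each. Of the 19 muscle fibre genes, 16 had a T1D-to-NGT difference below 0 (median -0.16; 7 below 0 and a median of 0.10 without T1D mouse 1, 8 and 0.039 without NGT mouse 3) and 0 passed, with 1 unadjusted p under 0.05 (*Myh2*, a fast myosin, difference -1.42). Of 7 tested muscle progenitor genes, 5 were above 0 (median 0.08; 3 of 7 and a median of -0.074 without NGT mouse 1, a median of 0.22 without NGT mouse 2 or 3), and *Myod1*, the factor related to myogenin, had 20.7 ± 6.72, 27.5 ± 14.7 and 11.6 ± 8.33 CPM in NGT, T1D and Lira mice. Of 11 bone genes 10 were above 0 (median 1.14), 1 of them with an unadjusted p under 0.05 (*Mepe*, an osteocyte gene, difference 2.56), but 4 of 11 without T1D mouse 1 (median -0.35). Above 0 were also all 9 tested erythroid genes (median 1.10), but 0 of 9 without T1D mouse 3 (median -1.37), and 5 of 10 neutrophil genes (median 0.00), whose median ranged from -0.59 to 2.05 without single mice. The single motor neuron gene tested, *Prph*, had a difference of 0.86 (SE 0.72). In all of these lists 0 genes passed in any comparison.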

How the data were processed

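The authors deposited expected counts per gene, not normalized, and FPKM values scaled by length and depth. The submitters' processing notes name build mm9, while aligner, counting tool and annotation were not given in the sources used here. Counts were rounded (30.2% were not whole). Genes reaching 10 counts in 3 or more of the 9 libraries were kept, 13960 of 18272. They were fitted in R 4.3.3 with edgeR 4.0.16 (TMM, glmQLFit, glmQLFTest, 3 group means over all libraries). Standard errors came from the F statistic, and the biological coefficient of variation was 0.433. CPM refer to the tested genes' total after TMM scaling, or to the library total where stated. FPKM served for levels between genes. DESeq2 1.42.0, other scalings, filters, covariates, a block and leaving out each mouse were alternatives. Exact permutation tests were two-sided. The script was tested on simulated data.

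Same-numbered NGT and T1D mice had correlations of 0.583, 0.647 and 0.283 across genes (log2 CPM, prior count 2, deviations from group means), each over 0.1, and were taken as pairs. T1D and Lira mice, at -0.244, 0.615 and 0.271, were not. Unlike-numbered NGT and T1D mice lay between -0.697 and 0.0668. The highest value between any 2 mice of different groups was 0.780, for NGT mouse 1 and Lira mouse 3, both muscle-poor libraries. Whether tissue content gave these likenesses was not tested. The labels name no pairing. The p-values measure the spread between these mice.

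The members and gene lists were chosen with earlier results of these data known. Named genes were the 9 members, the 4 most abundant genes of a list (for some lists fewer are printed, and some single genes are not reported here) and the 3 genes most like each tested member. The planned ratio of *Chrng* to *Chrne* was not computed because *Chrng* was at 0 in 5 libraries. Promoters came from RefSeq on GRCm38.p6, where 7 of 9 members matched, and from mm9 no coordinates are given.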

Additional observations from a re-analysis of the deposited data

How the results depend on the processing

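In every alternative run with edgeR, 0 genes passed the thresholds, and DESeq2 passed 1 gene in Lira against T1D, no member, and 0 in the other comparisons. Of 408 refitted differences of the 8 members, 22 changed sign, and the cause was not tested. In T1D against NGT, *Chrnd* became -0.25 with the Schwann cell covariate and *Dok7* 0.037 with muscle fibre scaling. In Lira against T1D, the Schwann cell covariate gave 0.11 for *Chrnb1*, 0.67 for *Chrnd*, 0.36 for *Chrne* and 0.074 for *Dok7*. *Musk* became -0.12 by library totals, -0.086 with the muscle fibre covariate, -0.088 with the replicate block and -0.37 with muscle fibre scaling. *Myog* became -0.079 by library totals and -0.41 with muscle fibre scaling. Leaving out each mouse in turn, T1D against NGT ranged from 0.77 to 2.11 for *Chrna1*, from 0.42 to 1.15 for *Chrnb1*, from 0.068 to 1.84 for *Chrnd*, from 0.51 to 1.86 for *Chrne*, from 0.082 to 0.69 for *Musk*, from -0.40 to -0.12 for *Dok7*, from 0.0034 to 0.69 for *Myog* and from 0.0057 to 1.01 for *Ncam1*. Lira against T1D ranged from -0.71 to 0.018 for *Chrnb1*, from -1.09 to 0.11 for *Chrnd*, from -0.17 to 0.10 for *Dok7*, from -0.86 to 0.39 for *Musk*, from -0.44 to 0.57 for *Myog* and from -1.13 to 0.23 for *Ncam1*, and T1D and Lira against NGT from -0.090 to 0.70 for *Musk*. *Chrna1* kept its sign in all alternatives of all 3 comparisons, and its T1D-to-NGT difference ranged from 0.54 to 2.11.

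Members with an unadjusted p under 0.05 in T1D against NGT numbered 3 with the muscle fibre covariate (820 of all genes), 2 with muscle fibre scaling, 2 with the replicate block, 3 with the block in NGT and T1D only, 0 with only the groups compared (548 of all genes), 0 with the Schwann cell covariate and 0 to 1 without single mice. In Lira against T1D they numbered 2, 1 and 1 with the muscle fibre covariate, muscle fibre scaling and only the groups compared, and 0 to 1 without single mice. In T1D and Lira against NGT there was 1 (*Chrnb1*) with DESeq2, library totals, the muscle fibre covariate, muscle fibre scaling and the replicate block, and 0 to 1 without single mice. Over all genes the counts in T1D against NGT were 1588 with the Schwann cell covariate, 1931 with the block in NGT and T1D only, 155 with muscle fibre scaling and 224 to 1007 without single mice. In Lira against T1D they were 1340, 732, 293 and 128 with the Schwann cell covariate, the muscle fibre covariate, only the groups compared and muscle fibre scaling, and 254 to 737 without single mice. In T1D and Lira against NGT they were 624, 500, 399 and 29 with the Schwann cell covariate, the muscle fibre covariate, the replicate block and muscle fibre scaling, and 90 to 595 without single mice. The numbers thus differed widely while the adjusted calls did not. The block moved no other call.

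The difference in muscle fibre level ranged from -70483 to 13917 CPM for T1D against NGT without single mice, from -24379 to 51955 for Lira against T1D and from -61284 to 8080 for both against NGT. Without T1D mouse 2 the correlation with the Schwann cell list turned to -0.27 for *Dok7*, 0.29 for *Myog* and 0.016 for *Ncam1*, and without the 2 farthest libraries to 0.33 for *Myog*. The Schwann cell covariate, the block in NGT and T1D only, the paired test of the muscle fibre level, the counts of members without overlap on other scales and the correlations with libraries left out or group means removed were chosen after seeing the data. The correlation test against the Schwann cell list was not in the plan either. No other setting of the *Chrng* to *Chrne* ratio was run. With 3 mice a group, intervals of all tested members but *Dok7* span more than 2-fold in the main fit. Those of *Dok7* did so with muscle fibre scaling and in some other fits. Without NGT mouse 2, for example, its T1D-to-NGT interval ran from -0.76 to 0.28.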
